A study of Equus caballus with 10 samples.

Results

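The miRNAs described here are eca-miR-146a, eca-miR-146b-5p and eca-miR-155, which are 3 of the 239 miRNA rows counted in small RNA captured from equine joint cells. They were picked by name as miRNAs of inflammatory signalling, with earlier results of these data known. Small RNA libraries came from 10 cultures that had received extracellular vesicles (EVs), the membrane-bound particles that cells release and take up. EV-recipient chondrocytes (5 horses, kept at 5% oxygen) were given a pool of synoviocyte EVs made from 9 horses. EV-recipient synoviocytes (4 horses, kept at 25% oxygen) were given a pool of chondrocyte EVs made from 8 horses. Cells were primary cultures from horse joints obtained at an abattoir and selected for low macroscopic damage scores, and the protocols name no inflammatory stimulus. Donor cells had been cultured for 48 h, in each of a pair of rounds, with 5-ethynyl uridine (5-EU), a uridine analogue that enters new RNA and allows it to be coupled to biotin and pulled out of total RNA, and recipient cells were exposed to the EVs for 24 h. The fifth synoviocyte library carries the mark SynoviocyteNEG in the group row of the deposited tables, while its sample title names only a synoviocyte, so its values are given separately. It enters no comparison between groups and, among the results, only the rank correlations across libraries. In the paper's heatmap the mark SynoviocyteNEG stands for the control recipient synoviocytes. The study's control recipients were given EVs from donor cells that had received no 5-EU.

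miR-146a and miR-146b are made from separate genes but have nearly identical mature sequences with the same seed, the stretch that pairs with target mRNAs. In human and mouse cells transcription of miR-146a is switched on by NF-κB downstream of Toll-like and interleukin-1 receptors. miR-146a then represses the adaptor proteins TRAF6 and IRAK1, which closes a negative feedback loop. miR-155 is processed from a non-coding host transcript that is also induced by inflammatory stimuli. It is known in human and mouse for repressing SOCS1 and the phosphatase SHIP1, which are brakes on cytokine signalling. All of these miRNAs are abundant in immune cells, and in human joints they have been studied in synovial fibroblasts and in osteoarthritic cartilage.

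Depth limited what could be seen of the 3 miRNAs. Total miRNA counts ran from 4891 in EV-recipient chondrocyte replicate 1 to 444408 in EV-recipient chondrocyte replicate 2, a 90.9-fold range. A floor of 3 counts therefore corresponded to 613 RPM in the former and 6.75 RPM in the latter, where RPM are miRNA counts scaled to a library total of 1000000. A listed value of 0 is read here against that floor where single libraries are described. Group means, their ratios, rank correlations and the exact tests take it as 0. Intervals are Wilson intervals at 95% confidence and cover counting error only, because copies of a molecule made by PCR could not be told from separate molecules. The recipient cell type, the EV source, the EV dose and the oxygen level changed together between the groups and cannot be told apart. The paper reports more EVs per volume of medium for the recipient synoviocytes. Within a group the libraries came from different recipient horses that shared a pool of EVs, so their spread does not include that between EV preparations. Both arms of the cartilage miRNA miR-140 summed to between 204 and 3805 RPM in EV-recipient chondrocytes and to between 0 and 182 RPM in EV-recipient synoviocytes. They thus stood higher where the label names chondrocytes as the recipient, although those cultures had been given EVs from synoviocytes. The library marked SynoviocyteNEG, titled a synoviocyte, went against its title in this, with 787 RPM. That value rests on 3 counts of eca-miR-140-3p and 13 of eca-miR-140-5p. None of the 3 miRNAs is among the most abundant. By mean RPM over the 9 labelled libraries, eca-miR-146a ranked 61, eca-miR-155 ranked 80 and eca-miR-146b-5p ranked 84 of 239.

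The first question was whether the feedback miRNA eca-miR-146a differed between cells that had received EVs of the other type. In EV-recipient chondrocytes it had 0, 109, 32, 65 and 14 counts in replicates 1 to 5, which is 0, 245, 806, 228 and 142 RPM. In EV-recipient synoviocytes it had 413, 318, 67 and 20 counts in replicates 1 to 4, which is 946, 1654, 2076 and 1166 RPM. By listed values all 4 EV-recipient synoviocyte libraries lay above all 5 EV-recipient chondrocyte libraries. The zero in replicate 1 of the latter allows at most 785 RPM by its interval. That is under the lowest listed EV-recipient synoviocyte value, but above the lower end of the interval of EV-recipient synoviocyte replicate 4 (755 to 1801 RPM). The closest pair was EV-recipient chondrocyte replicate 3 (interval 571 to 1138 RPM) and EV-recipient synoviocyte replicate 1 (859 to 1042 RPM), whose counting intervals overlap. The interval of that chondrocyte library also overlaps that of EV-recipient synoviocyte replicate 4.

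On average, eca-miR-146a stood at 284 ± 307 RPM in EV-recipient chondrocytes (SD, n = 5). The mean in EV-recipient synoviocytes was 1461 ± 506 RPM (SD, n = 4), a ratio of 5.14 with the zero of EV-recipient chondrocyte replicate 1 taken as 0 RPM. edgeR's quasi-likelihood test on the raw counts gave a log2 fold change of 2.28 (standard error 0.84, unadjusted p = 0.0149), EV-recipient synoviocytes over EV-recipient chondrocytes. After Benjamini-Hochberg adjustment over the 100 miRNAs tested the p was 0.177, so the difference did not pass the threshold of 0.05. An exact permutation test on log2(RPM + 10), which gives every library equal weight, found a difference of means of 3.23 (two-sided, p = 0.0159, adjusted over all 239 miRNAs p = 0.345). This exact test cannot go below p = 0.00794 with 5 against 4 libraries, and no miRNA passed it after adjustment, while 16 of 239 had an unadjusted p under 0.05. Without any 1 of the EV-recipient synoviocyte libraries, the exact p of eca-miR-146a lay between 0.0536 and 0.0714. On the same counts the DESeq2 Wald test did call eca-miR-146a (log2 fold change 2.41, standard error 0.62, adjusted p = 0.00231).

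**Figure D1:**
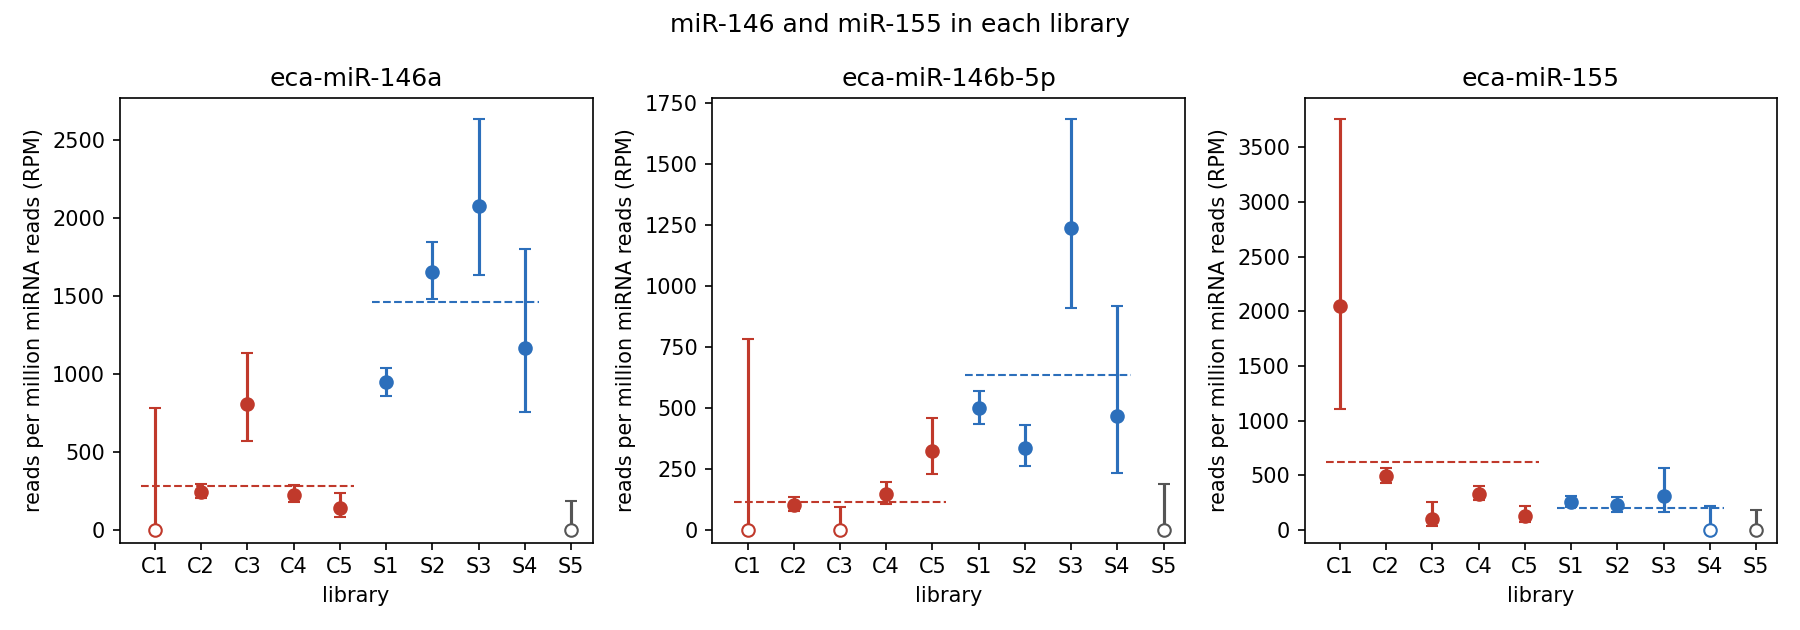
Level of each miRNA (RPM, linear axis) in EV-recipient chondrocytes (C1 to C5, red), EV-recipient synoviocytes (S1 to S4, blue) and the library marked SynoviocyteNEG (S5, grey). Points are single libraries, open where no read was counted, bars are Wilson 95% intervals for counting error, and dashed lines are group means. eca-miR-146a lies between 946 and 2076 RPM in S1 to S4 and at 806 RPM or less in C1 to C5. eca-miR-155 overlaps between the groups.

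eca-miR-146b-5p, the close relative of eca-miR-146a from another gene, stood lower but in the same order. Counts in EV-recipient chondrocyte replicates 1 to 5 were 0, 46, 0, 42 and 32, which is 0, 104, 0, 147 and 325 RPM. In EV-recipient synoviocyte replicates 1 to 4 it had 218, 65, 40 and 8 counts, which is 499, 338, 1240 and 466 RPM. The listed values of the groups did not overlap, but they came close. EV-recipient chondrocyte replicate 5 and EV-recipient synoviocyte replicate 2 had overlapping counting intervals (230 to 458 and 265 to 431 RPM). The zero in EV-recipient chondrocyte replicate 1 is uninformative, since its interval reaches 785 RPM, whereas the zero in replicate 3 allows at most 96.8 RPM.

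eca-miR-146b-5p averaged 115 ± 134 RPM among EV-recipient chondrocytes (SD, n = 5). Among EV-recipient synoviocytes it averaged 636 ± 408 RPM (SD, n = 4), a ratio of 5.52 with the zeros of EV-recipient chondrocytes taken as 0 RPM. The log2 fold change was 2.27 (standard error 0.97, unadjusted p = 0.0329, adjusted p = 0.219 in edgeR's quasi-likelihood test), again short of the threshold. The exact permutation test on log2(RPM + 10) gave a difference of means of 3.32 (two-sided, p = 0.0159, adjusted over all 239 miRNAs p = 0.345). With a pseudocount of 1 in place of 10 the exact p was 0.0635, and without any 1 EV-recipient synoviocyte library it lay between 0.0536 and 0.0893.

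Reads of these relatives cannot be fully separated. Their mature sequences are nearly identical and the authors mapped reads to miRBase with 1 mismatch allowed, so some reads may have been assigned to the wrong member. Summed over both rows, miR-146 reached 0, 349, 806, 376 and 467 RPM in EV-recipient chondrocyte replicates 1 to 5. It reached 1446, 1992, 3316 and 1633 RPM in EV-recipient synoviocyte replicates 1 to 4. The sum averaged 399 ± 288 RPM (SD, n = 5) and 2096 ± 844 RPM (SD, n = 4), respectively. If each read was counted in 1 row only, which is not known here, this sum does not depend on how reads were split between the pair. By listed values its groups did not overlap either.

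The share of eca-miR-146b-5p within the miR-146 counts of a library does not depend on depth or normalization. It varied most among EV-recipient chondrocytes, at 29.7% of 155 counts, 0% of 32, 39.3% of 107 and 69.6% of 46 in replicates 2 to 5, while replicate 1 had no miR-146 count. The counting intervals of replicates 3 (0 to 10.7%) and 5 (55.2 to 80.9%) did not overlap, on 32 and 46 counts whose assignment to a row is uncertain. EV-recipient synoviocytes held 34.5% of 631, 17% of 383, 37.4% of 107 and 28.6% of 28 counts in replicates 1 to 4. The mean share was 34.6 ± 28.7% (SD, n = 4) among EV-recipient chondrocytes and 29.4 ± 9.04% (SD, n = 4) among EV-recipient synoviocytes. The difference of -5.26 percentage points was smaller than the spread among the horses of a group (p = 0.743 in a two-sided exact permutation test that cannot go below 0.0286).

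**Figure D2:**
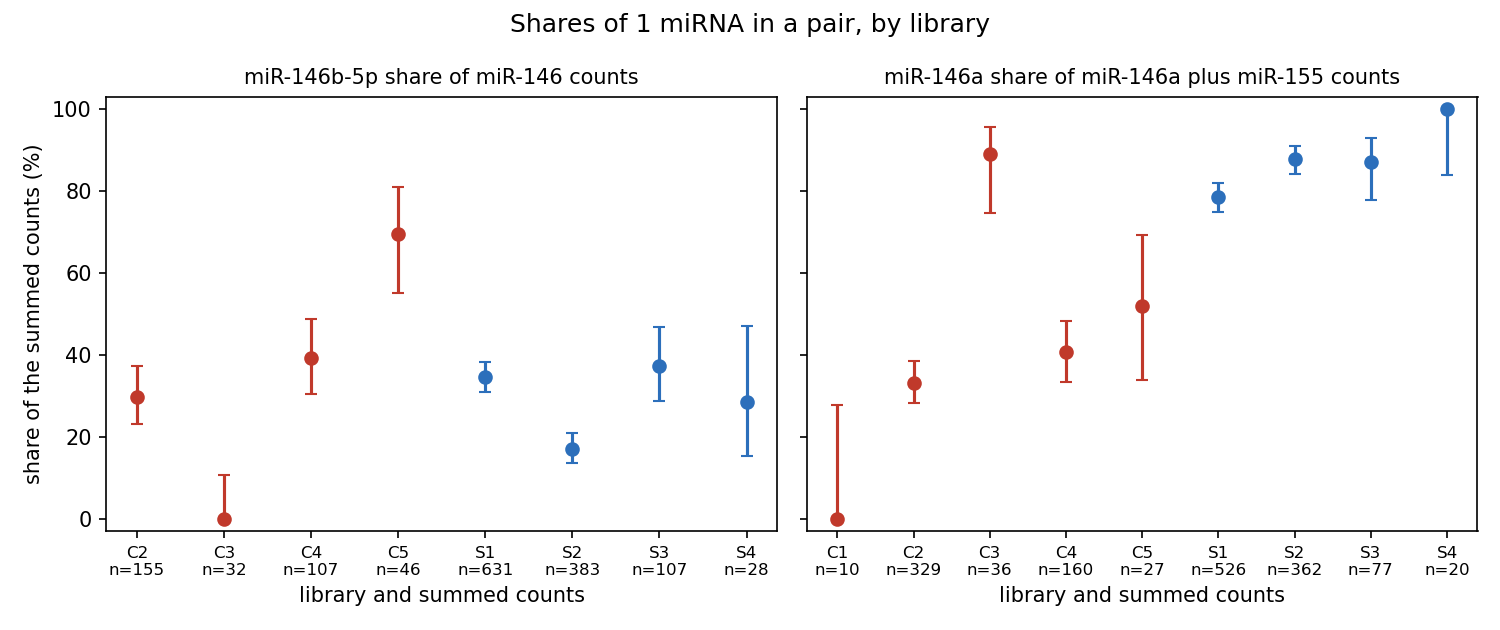
Left, share of eca-miR-146b-5p in the summed counts of both miR-146 rows (%). Right, share of eca-miR-146a in the summed counts of eca-miR-146a and eca-miR-155 (%). Each point is a library (C, EV-recipient chondrocytes, red; S, EV-recipient synoviocytes, blue) with its Wilson 95% interval and, under the axis, its summed counts n. On the left the values of C2 to C5 run from 0% to 69.6% and those of S1 to S4 from 17% to 37.4%. On the right S1 to S4 lie between 78.5% and 100% and C3 lies among them at 88.9%.

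eca-miR-155, the miRNA that restrains brakes on cytokine signalling, did not follow the miR-146 pair. Counts in EV-recipient chondrocyte replicates 1 to 5 were 10, 220, 4, 95 and 13, which is 2044, 495, 101, 334 and 132 RPM. In EV-recipient synoviocyte replicates 1 to 4 it had 113, 44, 10 and 0 counts, which is 259, 229, 310 and 0 RPM. The groups overlapped, and the miRNA was found in 5 of 5 EV-recipient chondrocyte and 3 of 4 EV-recipient synoviocyte libraries. The highest value rests on 10 counts in the shallowest library (interval 1111 to 3760 RPM), and the zero in EV-recipient synoviocyte replicate 4 allows up to 224 RPM.

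Among EV-recipient chondrocytes, eca-miR-155 averaged 621 ± 811 RPM (SD, n = 5) with a median of 334 RPM. Among EV-recipient synoviocytes it averaged 199 ± 137 RPM (SD, n = 4) with a median of 244 RPM. The log2 fold change was -1.10 (standard error 1.06, unadjusted p = 0.315, adjusted p = 0.716 in edgeR's quasi-likelihood test), and the exact permutation test on log2(RPM + 10) gave a difference of -1.57 (two-sided, p = 0.349). Leaving out 1 library moved that difference between -2.04 and -0.37, the latter without EV-recipient synoviocyte replicate 4 (exact p = 0.804). Without EV-recipient chondrocyte replicate 1 the log2 fold change was -0.26 (standard error 0.90, adjusted p = 0.948 in the same edgeR test). A difference in eca-miR-155 was thus not detectable with these libraries.

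Against all miRNAs tested, the miR-146 pair lay among the larger changes without being called. Of the 100 miRNAs that passed edgeR's filter on low counts, 1% were higher and 4% were lower in EV-recipient synoviocytes at an adjusted p under 0.05, and none of the 3 miRNAs was among them. At an unadjusted p under 0.05, 7% were higher, and eca-miR-146a and eca-miR-146b-5p were 2 of those 7 miRNAs. By p, eca-miR-146a ranked 8, eca-miR-146b-5p ranked 15 and eca-miR-155 ranked 44 of 100. By listed values, with zeros taken as 0, libraries of EV-recipient synoviocytes all lay above those of EV-recipient chondrocytes for 5% of the 100. These were eca-miR-146b-5p, eca-miR-146a, eca-miR-181b, eca-miR-181a and eca-miR-21, and all libraries lay below for 6%. For eca-miR-146b-5p the floor of EV-recipient chondrocyte replicate 1 (613 RPM) is above the lowest EV-recipient synoviocyte value (338 RPM). The median log2 fold change over the 100 was 0.11.

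**Figure D3:**
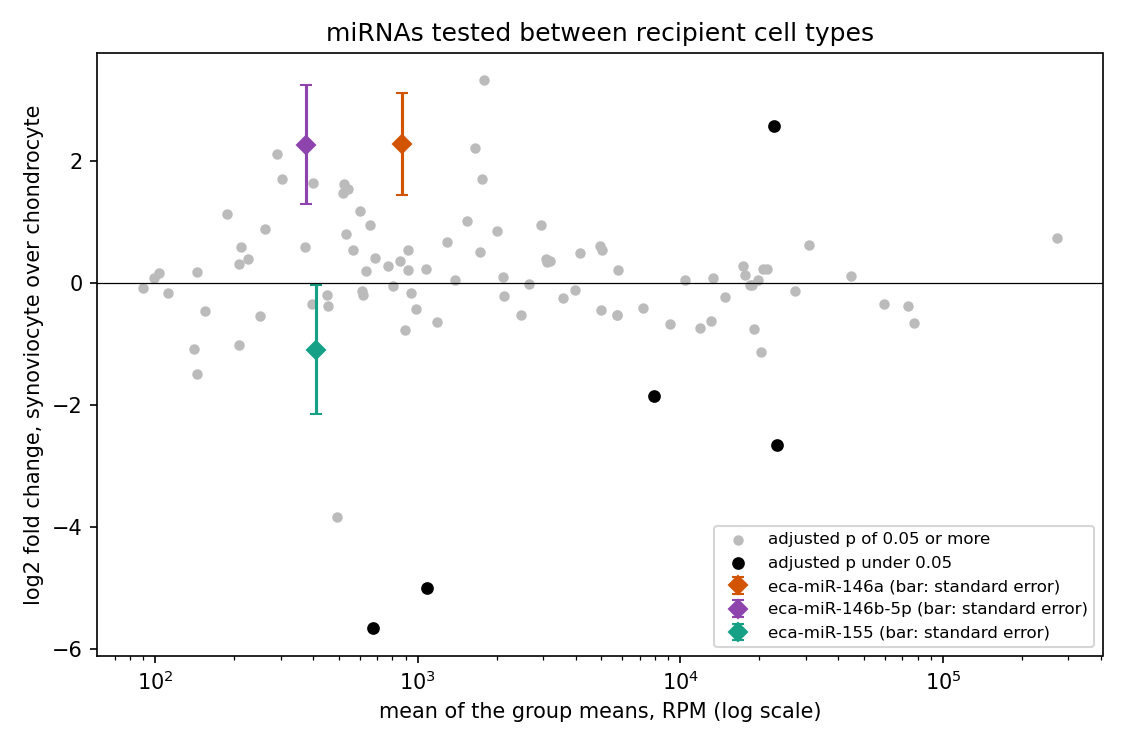
Log2 fold change in edgeR's fit (EV-recipient synoviocytes over EV-recipient chondrocytes) against the mean of the group means in RPM (log axis) for the 100 miRNAs tested. Black points passed an adjusted p of 0.05, grey points did not, and diamonds with standard errors are the 3 miRNAs. eca-miR-146a at 2.28 and eca-miR-146b-5p at 2.27 lie above the median of 0.11 of all miRNAs tested, and eca-miR-155 lies at -1.10.

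Other miRNAs known to act on Toll-like receptor, NF-κB or cytokine signalling were counted in the same way. Of a list of 18, 12 have a row in the tables and 10 were tested. None passed an adjusted p under 0.05, which 1% of all miRNAs tested did upwards and 4% downwards. At an unadjusted p under 0.05, 3 of the 10 were higher in EV-recipient synoviocytes and 2 were lower, beside 7% and 10% of all miRNAs tested. Those 3 were eca-miR-21, eca-miR-181a (log2 fold change 2.22, standard error 0.83) and eca-miR-181b (1.71, standard error 0.69), and the 2 were eca-miR-221 and eca-miR-199a-5p (-0.62, standard error 0.27). All of these but eca-miR-221 are among the differentially expressed miRNAs that the study reported from the same libraries. The list was drawn up with earlier results of these data known, so its shares are a description and no sign of an excess. In all, 6 of 10 had a positive log2 fold change, and their median was 0.30 beside 0.11 for all miRNAs tested. This list holds the abundant eca-miR-21 and also eca-miR-181b and eca-miR-181a, and none of the 3 miRNAs described here. The 3 most abundant were eca-miR-21 (log2 fold change 0.73, standard error 0.29), eca-miR-221 (-0.66, standard error 0.27) and eca-miR-222 (-0.37, standard error 0.29), for which edgeR's quasi-likelihood test gave adjusted p of 0.192, 0.192 and 0.639. miR-21 is known for repressing PDCD4, and miR-221 and miR-222 for repressing the cell cycle inhibitor p27.

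Levels were also ranked across the 10 libraries. Spearman's rho between eca-miR-146a and eca-miR-146b-5p was 0.78, while it was -0.11 between eca-miR-146a and eca-miR-155 and -0.03 between eca-miR-146b-5p and eca-miR-155. Among the miRNAs counted in at least 8 of the 10 libraries, the most like eca-miR-146a were eca-let-7d (rho 0.80), eca-miR-181a (0.78) and eca-let-7a (0.77). The most like eca-miR-146b-5p were eca-miR-181a (0.93), eca-miR-21 (0.80) and eca-miR-181b (0.79). For eca-miR-155 they were eca-miR-100 (0.71), eca-let-7g (0.67) and eca-let-7f (0.64). Over the 9 labelled libraries alone, an alternative chosen after seeing the data, rho was 0.74 within the miR-146 pair, -0.40 between eca-miR-146a and eca-miR-155, and -0.28 between eca-miR-146b-5p and eca-miR-155. These are descriptions with no test. All miRNAs of a library share its depth, and zeros of shallow libraries enter the ranks.

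miRNAs of blood cells were measured beside these results because miR-146a and miR-155 are abundant in leukocytes. The leukocyte list, of which 4 of 5 have a row, summed to between 705 and 2657 RPM in EV-recipient chondrocytes and to between 639 and 1735 RPM in EV-recipient synoviocytes. Most of it was eca-miR-342-3p in every library except EV-recipient chondrocyte replicate 1, where the sum was eca-miR-223 alone, with 13 counts. In EV-recipient synoviocyte replicates 1 to 4 eca-miR-342-3p had 267, 166, 49 and 16 counts. The more restricted eca-miR-142-3p had 8, 0, 0 and 1 counts in these libraries and eca-miR-223 had 4, 0, 7 and 0. There eca-miR-150 had no count, and eca-miR-146a stood at 946, 1654, 2076 and 1166 RPM. EV-recipient chondrocyte replicate 1 was also the library with the highest eca-miR-155, and eca-miR-223 had no count in the other EV-recipient chondrocyte libraries. The red cell list (eca-miR-451, eca-miR-486-5p and eca-miR-144) summed to between 45.7 and 1022 RPM in EV-recipient chondrocytes and to between 27.5 and 16967 RPM in EV-recipient synoviocytes. For its leading member eca-miR-451, edgeR's quasi-likelihood test gave 3.33 as the log2 fold change, with standard error 1.26 and adjusted p = 0.177. EV-recipient synoviocyte replicate 1 had the lowest sum. Replicates 1 to 4 of EV-recipient synoviocytes held 4, 170, 49 and 177 counts of eca-miR-451 and 8, 48, 6 and 65 of eca-miR-486-5p. The endothelial pair, eca-miR-126-3p and eca-miR-126-5p, had no count in EV-recipient chondrocytes and at most 93 RPM in EV-recipient synoviocytes. A mesenchymal list (eca-miR-143, eca-miR-145, eca-miR-199a-5p and eca-miR-214) summed to between 18312 and 40057 RPM in EV-recipient chondrocytes and to between 24740 and 90892 RPM in EV-recipient synoviocytes. Of its 3 members tested, eca-miR-143 was called higher (log2 fold change 2.57, adjusted p = 0.0157 in edgeR's quasi-likelihood test). The part of other cells and of cell make-up in the levels of the 3 miRNAs was not tested.

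The direction of each miRNA was the same under every setting in which it could be fitted. eca-miR-146a had log2 fold changes from 2.10 to 3.23 and eca-miR-146b-5p from 1.83 to 3.32 over 17 alternative settings, and eca-miR-155 from -1.57 to -0.26. The study's own abundance filter left 49 miRNAs and none of these 3. With spike-in counts as library size, the log2 fold change of eca-miR-146a was 2.21 with a standard error of 1.98, and miRNA counts were between 0.0134 and 2.35 times the spike-in counts among EV-recipient chondrocytes and between 0.0634 and 2.49 times among EV-recipient synoviocytes.

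**Figure D4:**
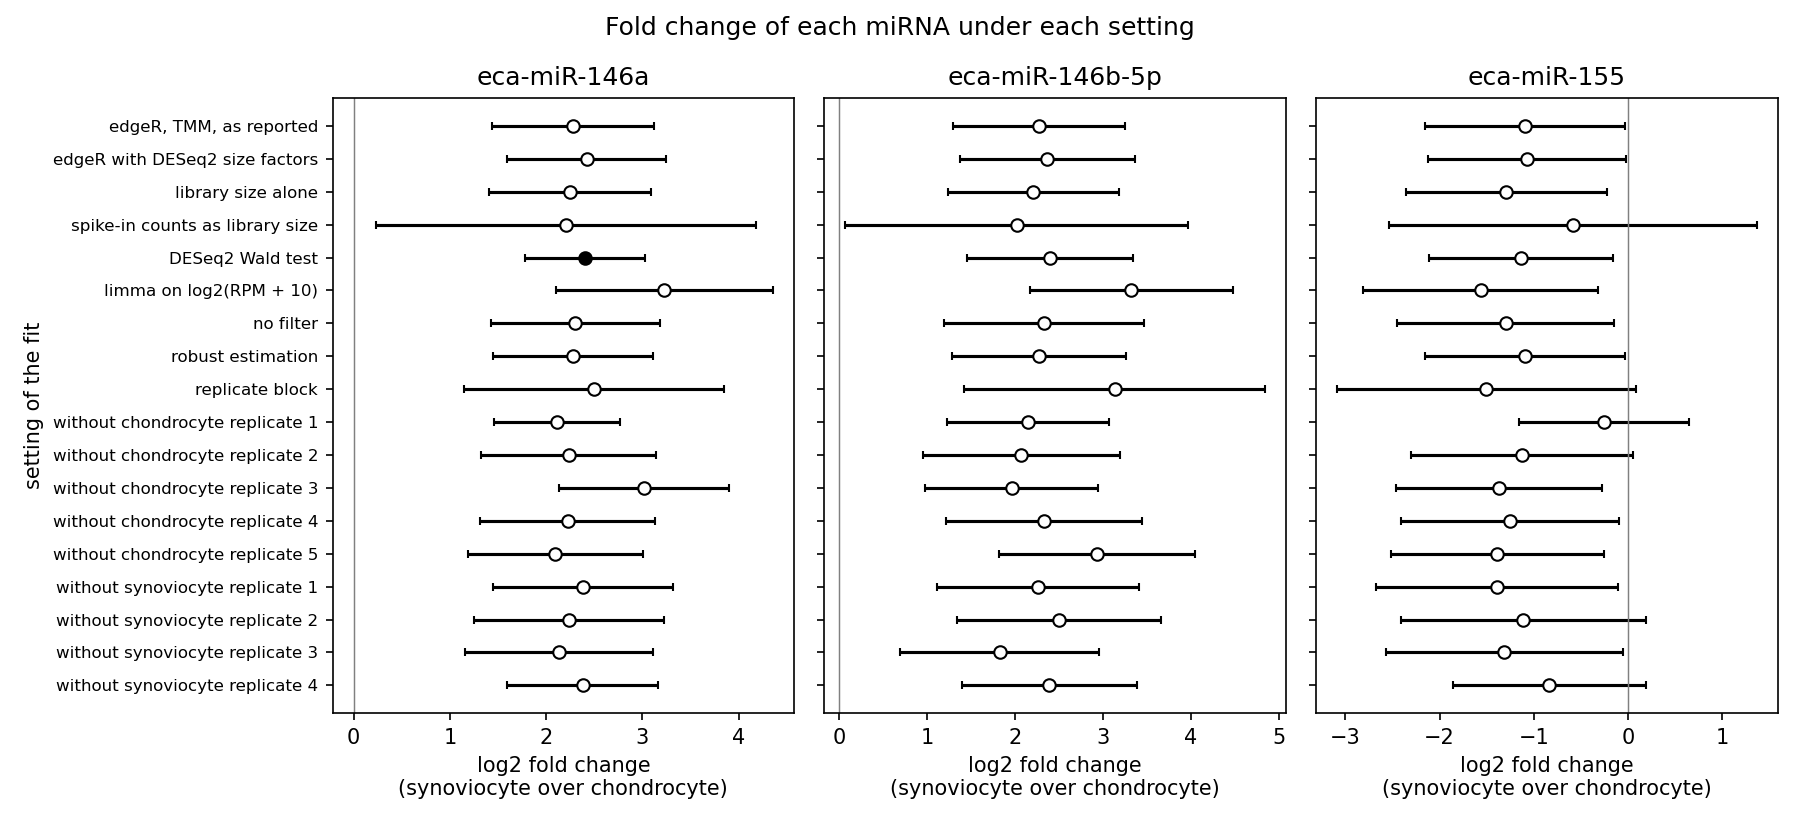
Log2 fold change (EV-recipient synoviocytes over EV-recipient chondrocytes) with its standard error for each miRNA under each setting of the fit, filled where the adjusted p was under 0.05. Every value of eca-miR-146a and eca-miR-146b-5p lies above 0 and every value of eca-miR-155 below 0. The filled point is the DESeq2 Wald test of eca-miR-146a, at 2.41.

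In the library marked SynoviocyteNEG, which held 20330 miRNA counts, none of the 3 miRNAs had a count, and the floor was 148 RPM. EV-recipient synoviocyte replicate 4, a library of like depth with 17151 counts, had 20 counts of eca-miR-146a and 8 of eca-miR-146b-5p, and no count of eca-miR-155.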

How the data were processed

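Small RNA from the 5-EU capture procedure was sequenced in 10 libraries. The authors trimmed reads with cutadapt 3.3, mapped them with Bowtie 1.3.0 and miRDeep2 to EquCab 3.0 and to horse miRBase entries, and deposited raw counts for 239 miRNAs and 8 spike-ins. The deposited RPM are counts scaled to a library total of 1000000 without spike-ins, a total that every library meets within 0.0409%. Depth ran from 4891 to 444408 miRNA counts. No sequence or coordinate table was used here, so no sequence is printed and shared seeds were not searched.

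EV-recipient synoviocytes (4) were compared with EV-recipient chondrocytes (5) by edgeR 4.0.16 (R 4.3.3) with TMM factors, filterByExpr at a minimum count of 10, the quasi-likelihood test and Benjamini-Hochberg adjustment. The study's own test was edgeR with a stricter filter, which leaves out these miRNAs and is an alternative here. DESeq2 1.42.0 and limma 3.58.1 on log2(RPM + 10) were other alternatives. Exact permutation tests used the absolute difference of means over 126 divisions of 9 libraries (Python 3.11.15). The scripts were tested on simulated data.

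The miRNAs, lists and filter were chosen with earlier results of these data known. Text names the 3 miRNAs, the 3 most abundant of the inflammatory list, the lists' marker miRNAs, the 3 miRNAs most like each, and those whose groups did not overlap upwards (the last chosen after values were seen). No library repeated another of its group, since the chi-square statistic of each pair was at least 11.5 times its degrees of freedom. All columns were mapped to a sample.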

Additional observations from a re-analysis of the deposited data

Results flagged for a closer look

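eca-miR-155 in EV-recipient chondrocyte replicate 1 stood at 2044 RPM, far above the other 4 EV-recipient chondrocyte libraries, which lay between 101 and 495 RPM. The gap to the next library was 0.797 of the whole range of the group, where 0.71 is the critical value for 5 samples, and chance passes that limit in about 1 of 20 groups. The value rests on 10 of 4891 counts, and the lower end of its Wilson interval, 1111 RPM, is above the next library. In the same library eca-miR-146a and eca-miR-146b-5p had no count and eca-miR-223 had 13.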

How the results depend on the processing

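The number of miRNAs at an adjusted p under 0.05 was 5 of 100. With spike-in counts as library size it was 0 (1 at an unadjusted p under 0.05). It was 2 with limma on log2(RPM + 10), 11 with the DESeq2 Wald test, 14 with no filter on low counts and 2 with the replicate block. Leaving out 1 library gave 1 to 7, with 1 without EV-recipient chondrocyte replicate 2, 2 without its replicate 4, and 3 without EV-recipient synoviocyte replicate 2 or 3. Replicate numbers name separate horses and do not pair libraries (correlations of same-numbered libraries from -0.15 to 0.31, the highest with its own number for 1 of 4). eca-miR-146a kept its direction under 17 alternatives and was called only by DESeq2, at 2.41. Leaving out 1 library moved its log2 fold change between 2.10 and 3.02, that of eca-miR-146b-5p between 1.83 and 2.93, and that of eca-miR-155 between -1.39 and -0.26, the last without EV-recipient chondrocyte replicate 1. With the replicate block the values were 2.50, 3.13 and -1.50. In the exact permutation tests, leaving out any EV-recipient synoviocyte library took eca-miR-146a (p from 0.0536 to 0.0714) and eca-miR-146b-5p (p from 0.0536 to 0.0893) above 0.05, with differences of mean log2(RPM + 10) over all libraries left out from 2.25 to 3.84 and from 2.70 to 3.96; fewer libraries raise the smallest p. With log2(RPM + 1) the difference of eca-miR-146b-5p was 4.68. The share of eca-miR-146b-5p differed by -16.8 to 6.39 percentage points between groups when 1 library was left out, the first without EV-recipient chondrocyte replicate 3 and the last without replicate 5. Depth limits the low values most, as 3 counts are 613 RPM in the shallowest library.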

Other observations

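The library marked SynoviocyteNEG had no count of miR-146, and other miRNAs were counted beside it after its values were seen. The miRNAs counted are at or above miR-146 in level, some of them, such as eca-miR-21, far above, so they are not of like abundance. Of the 50 miRNAs that reached 946 RPM or more in every EV-recipient synoviocyte library, the level of eca-miR-146a in the lowest of them, eca-miR-146a alone had no count in that library. At a limit of 338 RPM, the lowest EV-recipient synoviocyte level of eca-miR-146b-5p, 60 miRNAs qualified, and 3 of them had no count there, namely eca-miR-146a, eca-miR-146b-5p and eca-miR-676. Each limit is the lowest level of a miR-146 row, so by rule that row is the last to qualify. Its zero therefore does not set it apart from miRNAs of like level. At its depth of 20330 miRNA counts, the lowest EV-recipient synoviocyte levels would correspond to 19.2 counts of eca-miR-146a and 6.87 of eca-miR-146b-5p. The EV-recipient chondrocyte means would correspond to only 5.78 and 2.34 counts. The numbers of miRNAs with no count take exact zeros only. The miRNAs most like eca-miR-146b-5p were eca-miR-181a, eca-miR-21 and eca-miR-181b, with 2, 3537 and 3 counts in the library marked SynoviocyteNEG. In EV-recipient synoviocyte replicate 4, of like depth, they had 44, 5161 and 41 counts. Low counts there were thus shared by eca-miR-181a and eca-miR-181b, while eca-miR-21 kept 3537 counts. Likeness was ranked over all 10 libraries with this one among them, which favours miRNAs that are low in it. The library marked SynoviocyteNEG is a single culture, so no test was made.

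The balance of eca-miR-146a and eca-miR-155 within a library, also looked at after the values were seen and so not tested, does not depend on depth. eca-miR-146a made up 0% of 10, 33.1% of 329, 88.9% of 36, 40.6% of 160 and 51.9% of 27 summed counts in EV-recipient chondrocyte replicates 1 to 5. In EV-recipient synoviocyte replicates 1 to 4 it made up 78.5% of 526, 87.8% of 362, 87% of 77 and 100% of 20. EV-recipient chondrocyte replicate 3 had the second highest share of all 9 labelled libraries.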
